A study of Mus musculus with 24 samples.

Results

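Chd6, Emilin3 and Rasl11b are the genes at the highest-ranked H3K27ac peaks, after one at Gli1, that purmorphamine-treated NIH3T3 fibroblasts had and control fibroblasts lacked. They were chosen by that contrast, from the purmorphamine and control NIH3T3 lists, so the NIH3T3 differences given here describe the choice and were not tested. The members are all peaks of 7 lists that overlapped the mm10 gene body of 1 of the 3 genes or the 50 kb on either side, which gave 180 of 368246 peaks. Chd6 and Emilin3 are neighbours on chromosome 2 and their windows overlap, so they were treated as 1 region of 302.6 kb (chr2:160856437-161159075) with 98 peaks. The Rasl11b region measured 104.2 kb (chr5:74145286-74249481) and held 82 peaks.

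The study mapped histone marks by ChIP-seq with 2 biological replicates per condition, 24 libraries in all, of which 10 were inputs. Forelimb buds came from Swiss Webster embryos at E10.5 with 32 to 35 somites, and about 400000 cells went into each ChIP. The controls, called WT, were wild-type and heterozygous littermates by the study's methods, and the Shh-/- embryos lack Sonic hedgehog everywhere, because the allele is a germline null. H3K27ac and H3K4me2 were mapped in both genotypes and H3K27me3 in Shh-/- buds alone. NIH3T3, an established line of mouse embryonic fibroblasts, received 400 nM purmorphamine or the DMSO vehicle for 48 h in low serum, with 1000000 cells per ChIP. The labels of both NIH3T3 conditions also carry the term LIF. The H3K27ac antibody differed between limb buds and NIH3T3 cells, so levels were compared only within a tissue.

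Hedgehog signalling runs from the ligand through the receptor PTCH1 and the membrane protein Smoothened to the GLI transcription factors, which act as repressors without ligand and as activators with it. Purmorphamine activates Smoothened directly, and Gli1 and Ptch1 are widely used target genes of the pathway. H3K27ac marks active promoters and enhancers, H3K4me2 marks promoters and many enhancers, active or poised, and H3K27me3 is deposited by Polycomb. Rasl11b encodes a small GTPase of the RAS superfamily, Chd6 an ATP-dependent chromatin remodeller of the chromodomain helicase family, and Emilin3 a glycoprotein of the extracellular matrix.

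The authors called each list from both replicates together against input, so the values of a single replicate are not known and no difference between lists could be tested. For each peak the lists give a rank, a false discovery rate and the largest log2 ratio of ChIP to input within the peak. A peak was called shared when it overlapped a peak of the partner list by at least 1 bp, and unshared, purmorphamine-only or WT-only otherwise. In bulk material a higher ratio per cell and more cells with the mark cannot be told apart. The purmorphamine and control lists were alike in size, with 87809 and 91023 peaks and median log2 ratios of 2.79 and 2.70. H3K27ac lay within 1 kb of the start of 6 of 6 fibroblast marker genes in both NIH3T3 lists, beside 50.0% of all protein-coding starts in each. It lay there for 6 of 6 limb mesenchyme markers in both limb lists, beside 41.0% of starts in WT and 38.1% in Shh-/-. Each limb list also held 4 of the 6 fibroblast markers, and each NIH3T3 list 2 of the 6 limb markers. Among 8 markers of endothelium, surface epithelium and blood, the limb H3K27ac lists held a start-site peak at 1 in WT buds (Cdh5, endothelial) and at 0 in Shh-/- buds. The NIH3T3 lists each held 1, both of surface epithelium, Trp63 with purmorphamine and Krt8 in control cells. In the Trp63 window 90 of 126 purmorphamine peaks were purmorphamine-only, beside 36.5% of all purmorphamine peaks. The part of these markers in the results was not tested.

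The sequences that carry the description are those under the strongest purmorphamine-only peaks and those that match the GLI consensus GACCACCCA, searched on both strands. They were read from the GRCm38 assembly, the build that mm10 names, and are those of the C57BL/6J reference rather than of NIH3T3 cells or Swiss Webster embryos. The coordinates of the lists could start from 0 or from 1 and were taken as they stand, so each may be 1 bp off. The first sequence is the 300 bases around the highest score of the best purmorphamine-only peak on chromosome 2, in an intron of Chd6 (chr2:160952926-160953225, plus strand), with the GLI consensus in capitals. The match ends 125 bp before the position of the highest score.

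Chd6 intron, purmorphamine-only peak: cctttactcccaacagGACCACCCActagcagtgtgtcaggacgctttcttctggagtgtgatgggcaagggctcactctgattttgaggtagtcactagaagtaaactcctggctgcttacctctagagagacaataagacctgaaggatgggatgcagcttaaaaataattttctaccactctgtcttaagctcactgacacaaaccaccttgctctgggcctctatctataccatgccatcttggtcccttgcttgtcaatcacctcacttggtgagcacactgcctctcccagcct

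The corresponding 300 bases of the best purmorphamine-only peak near Rasl11b lie between genes (chr5:74168826-74169125, plus strand) and hold no match, exact or with 1 mismatch, so they have no capitals.

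Upstream of Rasl11b, purmorphamine-only peak: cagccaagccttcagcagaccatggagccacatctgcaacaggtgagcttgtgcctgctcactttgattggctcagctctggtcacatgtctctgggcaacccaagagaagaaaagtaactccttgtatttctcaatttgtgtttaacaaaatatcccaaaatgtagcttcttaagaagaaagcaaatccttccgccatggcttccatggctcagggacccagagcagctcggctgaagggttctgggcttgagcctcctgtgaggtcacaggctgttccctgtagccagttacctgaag

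Another element at Rasl11b is shown because it was acetylated in limb buds of both genotypes and in NIH3T3 cells with purmorphamine alone. Its highest score in the purmorphamine list lies past the 3′ end of the gene (chr5:74201976-74202275, plus strand). It holds no GLI match, exact or with 1 mismatch, and has no capitals.

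Downstream of Rasl11b, peak of limb buds and of purmorphamine-treated cells: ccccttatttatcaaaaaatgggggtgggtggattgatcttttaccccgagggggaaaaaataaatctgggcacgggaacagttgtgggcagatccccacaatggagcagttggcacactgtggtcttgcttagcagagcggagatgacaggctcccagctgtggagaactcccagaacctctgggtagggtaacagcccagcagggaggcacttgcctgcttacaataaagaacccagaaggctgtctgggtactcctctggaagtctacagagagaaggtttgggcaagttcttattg

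The 2 regions held 4 exact matches to the GLI consensus, of which 3 are printed with the 10 bases on either side and the match in capitals. The first lies in the UTR of Zhx3 (chr2:160872527-160872555, plus strand), the next in the Chd6 intron (chr2:160952932-160952960, plus strand) and the last upstream of Rasl11b (chr5:74181744-74181772, minus strand).

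Zhx3: tgtcccgcgcGACCACCCAgaccctggac
Chd6 intron: ctcccaacagGACCACCCActagcagtgt
Upstream of Rasl11b: catcgttcatGACCACCCAagtcttcctt

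At Chd6 and Emilin3, H3K27ac of NIH3T3 cells with purmorphamine formed a nearly continuous domain between the Emilin3 start and the 3′ end of Chd6. The purmorphamine list had 47 peaks covering 46.5 kb of the region, or 15.3%, and the control list 24 peaks covering 13.6 kb, or 4.49%. The covered length was 3.42 times as large with purmorphamine, while the mean log2 ratio per peak was 3.03 against 2.85, and the whole lists went the other way with a ratio of 0.938. Of the 47 purmorphamine peaks, 33 had no control counterpart, beside 36.5% of all purmorphamine peaks, and of the 24 control peaks 4 had no purmorphamine counterpart, beside 41.1% of all control peaks. These shares follow from the choice of the genes. Most of the 33 were small, with a median width of 200 bp.

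The best of the 33 spanned 5350 bp (chr2:160950000-160955349), with a log2 ratio of 5.30 and an FDR of 0.000314. It ranked 459 of its list and was placed 2 among all 32020 purmorphamine-only peaks. It covers part of the last coding exon of Chd6 and most of the intron before it, and the nearest control peak was 6901 bp away. It was the only unshared peak here in the better-ranked 10% of the list. The purmorphamine-only peak next in rank (chr2:160921650-160923149, rank 16628) lies between the 2 genes with a log2 ratio of 3.69, so the remaining ones were much weaker.

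**Figure D1:**
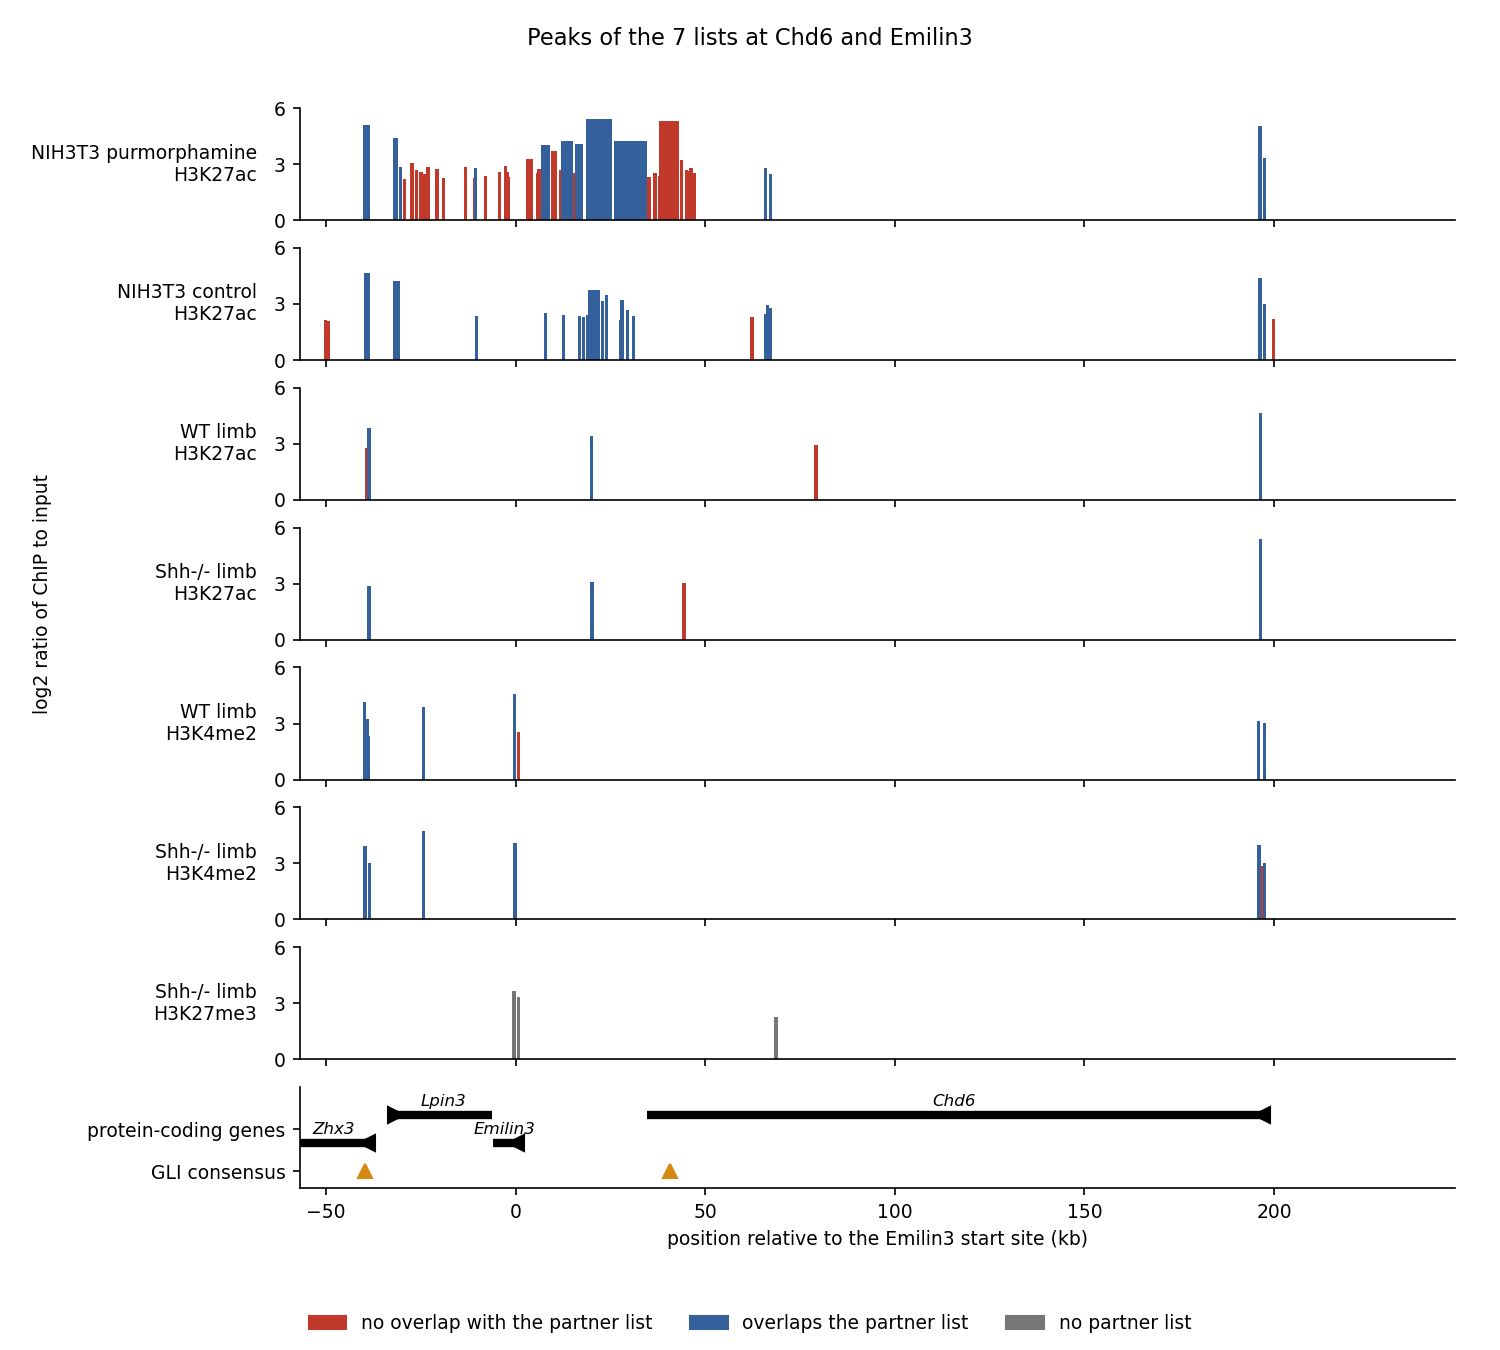
Peaks of the 7 lists across the Chd6 and Emilin3 windows, with the position relative to the Emilin3 start site in kb on the horizontal axis and the log2 ratio of ChIP to input as bar height; bar width is peak width, the narrowest peaks being widened to stay visible, arrowheads mark gene starts, and triangles mark the 2 GLI consensus matches printed for this region. In the purmorphamine row peaks cover 79.4% of the interval between the Emilin3 start and the Chd6 3′ end, against 20.1% in the control row, while each limb H3K27ac row has 1 peak there.

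The 34.6 kb between the Emilin3 start and the end of Chd6 hold the lincRNA Gm14228 and no protein-coding gene. Purmorphamine peaks covered 27.5 kb of it, or 79.4%, in 11 peaks, and control peaks covered 6.95 kb, or 20.1%, in 12 peaks. Each of the 12 control peaks overlapped a purmorphamine peak. The strongest peak of the region in the purmorphamine list was of this kind, 6700 bp wide (chr2:160930950-160937649) with a log2 ratio of 5.43 and rank 263, and it overlapped 4 control peaks, the best with a log2 ratio of 3.74 and rank 13632. The difference of 1.69 on the log2 scale was reached by 0.300% of all 55759 shared purmorphamine peaks, whose median difference was -0.11. The region was chosen on this contrast, so that share is a description and not a test. Another 8700-bp peak (chr2:160938300-160946999) ran up to the 3′ UTR of Chd6 and had a log2 ratio of 4.21, against 3.24 in its best control counterpart. The 5 shared peaks that lie in this interval or reach its end had differences from 0.98 to 1.80.

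The interval met 6 of the 33 purmorphamine-only peaks, and the others lay outside it. In the Chd6 body, which holds the best of them, purmorphamine peaks covered 10.3 kb and control peaks 2.03 kb, and in the Emilin3 body 0.75 kb and 0 kb. At the start of Zhx3, a zinc finger and homeobox gene, the log2 ratio was 5.09 with purmorphamine and 4.68 in control cells. At the start of Lpin3, of the lipin family of phosphatidate phosphatases, it was 4.39 and 4.22. Lpin3 carried 13 purmorphamine-only peaks within its body, the best of them ranked 32656, and control peaks covered 5.45% of it against 18.5% with purmorphamine. A cluster of 3 small peaks inside Chd6 was shared, and each had a log2 ratio lower by 0.11 to 0.32 with purmorphamine than the best control peak it overlapped. The 4 control-only peaks were 100 or 150 bp wide, with log2 ratios from 2.11 to 2.31 and ranks from 69742 to 90134.

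The start sites of the 2 genes differed. At the Chd6 start all 4 H3K27ac lists had a peak, which held for 34.0% of protein-coding starts. Its log2 ratio was 5.04 with purmorphamine and 4.40 in control cells, and 4.66 in WT and 5.41 in Shh-/- limb buds. The ranks were 1179, 7231, 4903 and 1242, in the same order. Both limb H3K4me2 lists also had peaks within 1 kb, the best with log2 ratios of 3.13 in WT and 3.96 in Shh-/-, and the nearest H3K27me3 peak lay 100225 bp away. The purmorphamine and Shh-/- H3K27ac peaks ended 26 bp short of the annotated start, and the control and WT peaks reached it.

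At the Emilin3 start no H3K27ac list had a peak within 1 kb. The nearest was 2179 bp away with purmorphamine, a 100-bp peak of rank 81352 in the body of the gene. In control cells it was 7372 bp away, in WT limb buds 19622 bp and in Shh-/- limb buds 19672 bp. The same start carried H3K4me2 in both limb lists, with log2 ratios of 4.60 in WT (chr2:160911500-160912499, rank 931) and 4.07 in Shh-/- (chr2:160911700-160912499, rank 4495). It also carried H3K27me3 in Shh-/- limb buds, with a log2 ratio of 3.67 (chr2:160911350-160912349, rank 1428) and a further peak of 3.33 just upstream. H3K4me2 in both limb lists with H3K27me3 and no H3K27ac within 1 kb held for 5.98% of protein-coding starts. The whole limb bud was assayed, so both marks on the same chromatin and each mark in other cells cannot be told apart.

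Limb H3K27ac was sparse at Chd6 and Emilin3. WT buds had 5 peaks covering 1.95 kb and Shh-/- buds had 4 covering 1.5 kb. The WT-only peaks numbered 2 of 5, beside 48.5% of the whole list, and the Shh-/- only peaks 1 of 4, beside 38.4%. All 3 were 150 or 200 bp wide, and these few peaks were not tested. Between Emilin3 and Chd6 each genotype had 1 peak, at the same place, with log2 ratios of 3.40 in WT (chr2:160931950-160932249) and 3.08 in Shh-/- (chr2:160932000-160932399). Both lie inside the 6700-bp peak that ranked highest in purmorphamine-treated cells, and inside its best control counterpart as well. The Shh-/- only peak (chr2:160956250-160956449, log2 ratio 3.04) overlapped a purmorphamine-only peak of the Chd6 body and no control peak. H3K4me2 had 8 peaks in WT and 7 in Shh-/- buds, at the starts of Zhx3, Emilin3 and Chd6 and inside Lpin3. In each genotype 1 of them was unshared, beside 25.7% of the whole WT list and 22.5% of the Shh-/- list. The Lpin3 peak had log2 ratios of 3.88 in WT and 4.76 in Shh-/- and was the best-ranked H3K4me2 peak of the region in Shh-/- buds, at rank 638. H3K27me3 had 3 peaks, of which 2 were at the Emilin3 start and 1, of 150 bp and rank 13471, in the Chd6 body. The last had an FDR of 0.111, and asking for an FDR under 0.05 left 2 peaks.

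At Rasl11b the fibroblast lists differed more widely. The purmorphamine list had 33 peaks covering 35.3 kb, or 33.9% of the region, and the control list 5 peaks covering 1.65 kb, or 1.58%. The covered length was 21.4 times as large with purmorphamine, with a mean log2 ratio per peak of 3.04 against 2.86. Of the 33 peaks, 30 had no control counterpart, beside 36.5% of all purmorphamine peaks. All 5 control peaks overlapped purmorphamine peaks, while 41.1% of all control peaks overlapped none. Rasl11b was chosen on this contrast, so these values describe the choice. Upstream of the gene, peaks covered 60.7% of 50 kb with purmorphamine and 1.97% in control cells. Downstream, they covered 5.40% with purmorphamine and no control peak was called.

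The purmorphamine-only peaks of the better-ranked 10% numbered 3 and lie side by side. The best (chr5:74168350-74171199) had a log2 ratio of 5.19, rank 485 and place 3 among all purmorphamine-only peaks. The other two had log2 ratios of 4.72 (chr5:74165600-74168199, rank 2706) and 4.31 (chr5:74158900-74164099, rank 6592). Across both regions, 12 purmorphamine peaks were in the better-ranked 10% and 4 of them were purmorphamine-only, beside 1.38% of all such peaks, and the genes were chosen on exactly this property. The block went on towards the gene with a 6850-bp peak (chr5:74171500-74178349) over the unclassified transcript A330058E17Rik, with a log2 ratio of 4.84 and rank 2298. It counted as shared through 2 control peaks of 200 bp each, with log2 ratios of 2.54 and 2.49 and best rank 58054. The difference of 2.29 on the log2 scale was reached by 0.0323% of all shared purmorphamine peaks. The locus was chosen on this contrast, so that share is a description and not a test.

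**Figure D2:**
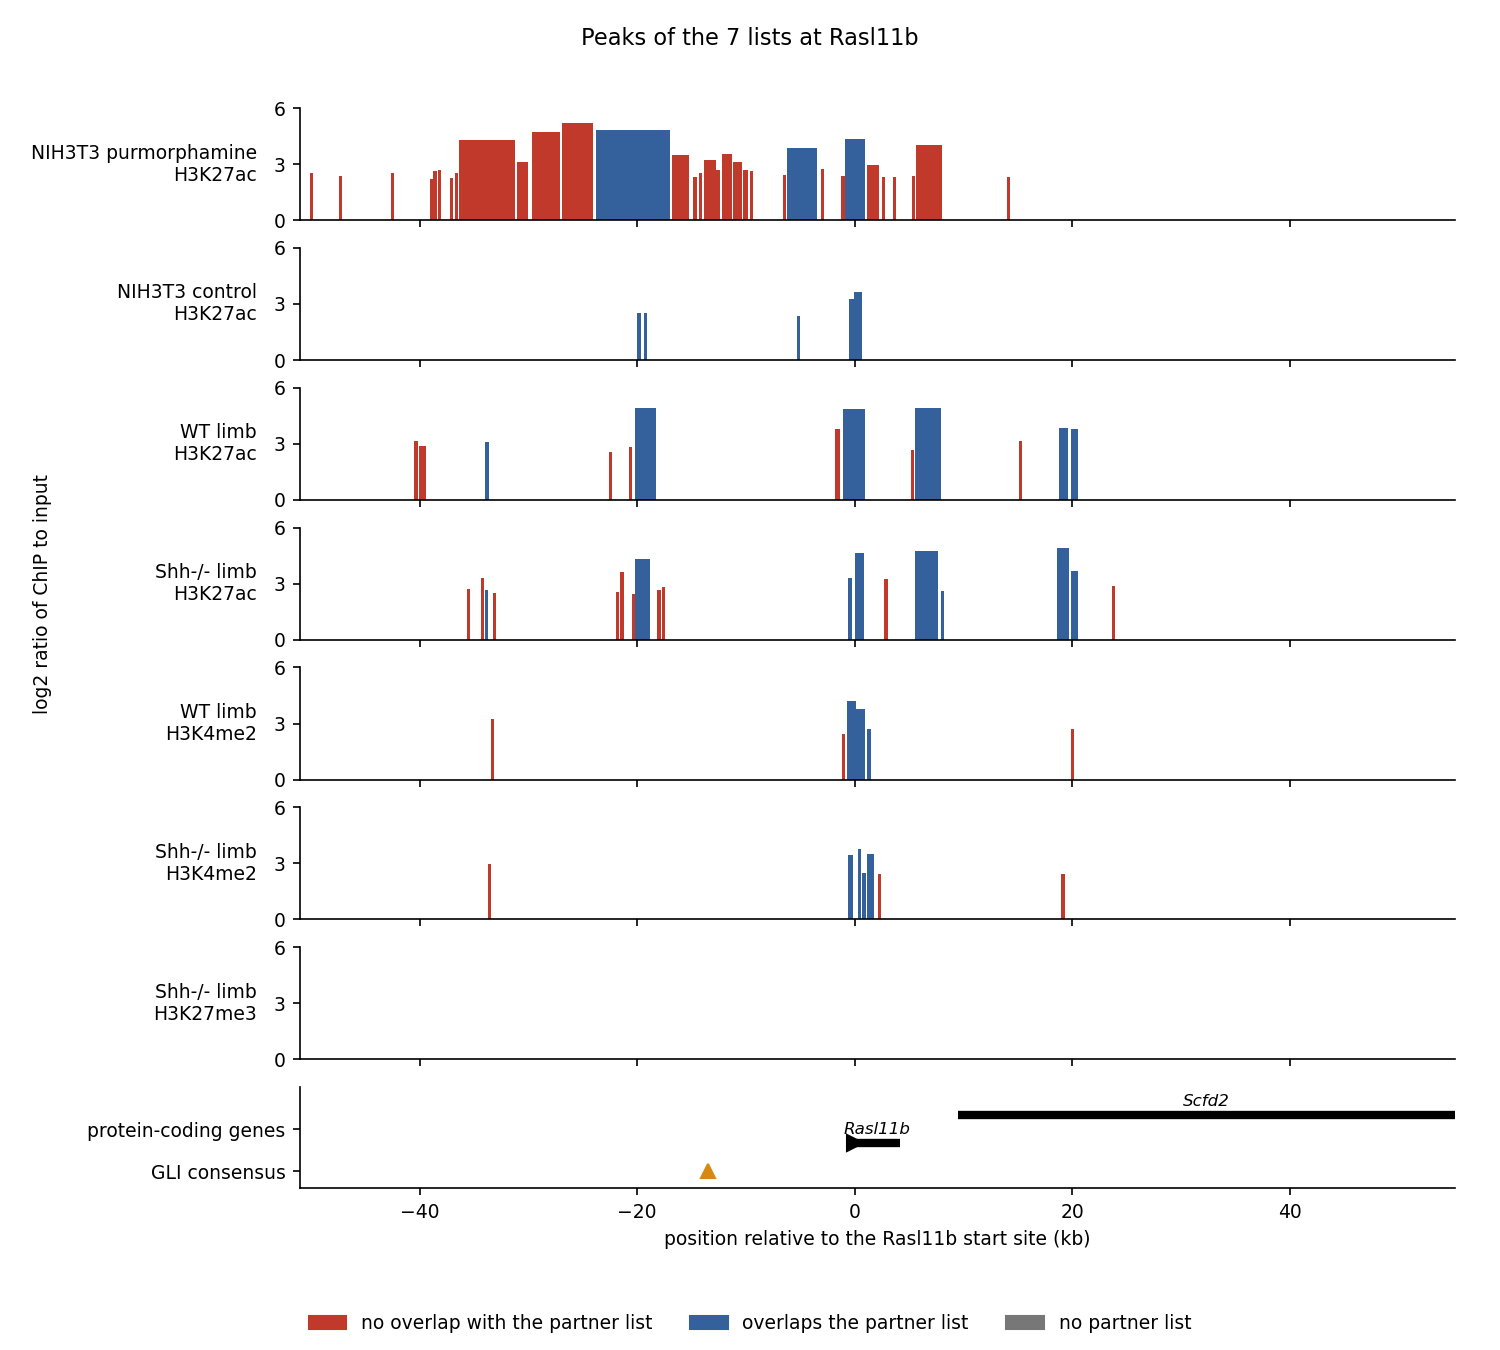
Peaks of the 7 lists across the Rasl11b window, with the position relative to the Rasl11b start site in kb on the horizontal axis and the log2 ratio of ChIP to input as bar height; bar width is peak width, the narrowest peaks being widened to stay visible. The control row has 5 peaks and the purmorphamine row 33, while the limb H3K27ac rows hold the same tall peaks in both genotypes at the start site, upstream and downstream of the gene.

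The Rasl11b start was acetylated in all 4 H3K27ac lists. In NIH3T3 cells its log2 ratio was 4.34 with purmorphamine (rank 7161) and 3.64 in control cells (rank 24590), and the peak was 1900 bp wide with purmorphamine and 700 bp in the best control peak. In limb buds it was 4.89 in WT (rank 3789) and 4.64 in Shh-/- (rank 3600). H3K4me2 lay within 1 kb in both genotypes, in 3 peaks each, with best log2 ratios of 4.20 in WT and 3.75 in Shh-/-. The nearest H3K27me3 peak was 323914 bp away, and the region held no H3K27me3 peak. The bases just upstream of the annotated start (chr5:74195076-74195285, plus strand, taken from RefSeq promoters on GRCm38.p6 and ended at the GENCODE start) are shown because the purmorphamine, control and WT H3K27ac peaks all reach into them. They are 74.8% G or C with 24 CG pairs and hold no GLI match, exact or with 1 mismatch, and 0.253% of 32817 RefSeq promoter windows held an exact one.

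Rasl11b promoter: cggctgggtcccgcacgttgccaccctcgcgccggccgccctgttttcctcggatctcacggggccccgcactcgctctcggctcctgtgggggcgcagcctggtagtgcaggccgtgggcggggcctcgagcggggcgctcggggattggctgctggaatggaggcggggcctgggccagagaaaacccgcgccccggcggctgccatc

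Limb H3K27ac at Rasl11b was present in both genotypes. WT buds had 13 peaks covering 10.4 kb and Shh-/- buds 18 covering 8.80 kb. That is a ratio of 1.18 in covered length, which is also the ratio of the whole lists, with mean log2 ratios per peak of 3.58 and 3.32. Besides the start site, the elements with the highest ratios were 1 under the A330058E17Rik transcript, 1 between Rasl11b and Scfd2 and 1 in an intron of Scfd2, which lies next to Rasl11b. The first had log2 ratios of 4.90 in WT (chr5:74175050-74176999) and 4.30 in Shh-/-. The second had 4.90 in WT (chr5:74200800-74203249, rank 3730) and 4.75 in Shh-/- (chr5:74200800-74202949, rank 3153). The third had 3.86 in WT (chr5:74214100-74214899, rank 11210) and 4.93 in Shh-/- (chr5:74213850-74214949, rank 2510), where it was the best-ranked peak of the region. Each of the 3 was called in both genotypes, and the higher ratio was in WT for 2 of them and in Shh-/- for 1.

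The peaks called in 1 genotype alone were not all weaker than the shared ones. In the Rasl11b region the highest log2 ratio was 3.77 among WT-only and 3.64 among Shh-/- only peaks. A shared peak upstream of the gene had 3.10 in WT and 2.65 in Shh-/-. At Rasl11b, 7 of 13 WT peaks and 10 of 18 Shh-/- peaks were unshared, and none of these was in the better-ranked 10% of its list. Over both regions the counts were 9 of 18 WT peaks, beside 48.5% of the whole list, and 11 of 22 Shh-/- peaks, beside 38.4%. The WT share is near the background and is no result about these genes. The Shh-/- share rests on few, adjacent peaks and was not tested, and merging peaks within 1 kb left 3 Shh-/- only peaks. In H3K4me2, 4 of 14 peaks were unshared in WT and 4 of 14 in Shh-/-, beside 25.7% and 22.5%. These shares are near the background too, and an FDR under 0.05 left 6 unshared H3K4me2 peaks over both genotypes. At Gli1 the limb H3K27ac lists had 11 peaks in WT and 7 in Shh-/-, covering 6.45 kb and 3.35 kb with mean log2 ratios of 4.00 and 3.22, and at Ptch1 13 and 9 peaks covering 13.0 kb and 4.00 kb with means of 3.82 and 3.31. The ratios of covered length were 1.93 at Gli1 and 3.25 at Ptch1, against 1.18 at Rasl11b and 1.30 at Chd6 and Emilin3. With each list pooled from its replicates, these ratios could not be tested against each other.

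**Figure D3:**
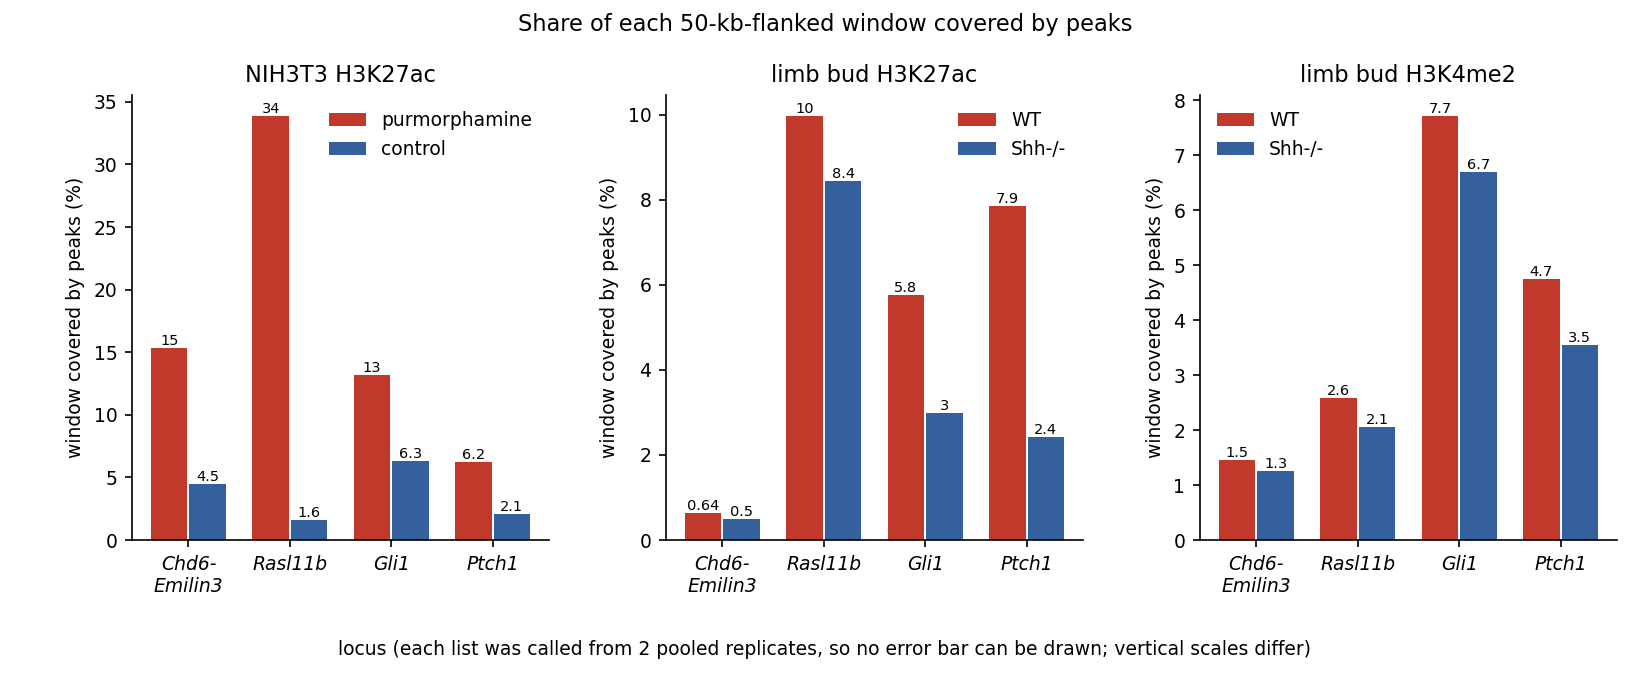
Share of each window covered by peaks, in percent of the gene with its 50-kb flanks, for the region of Chd6 and Emilin3 and for Rasl11b, Gli1 and Ptch1, in purmorphamine and control NIH3T3 cells and in WT and Shh-/- limb buds; the 3 vertical axes start at 0 and differ in scale. The widest gap is that of Rasl11b in NIH3T3 cells, 33.9% against 1.58%, while its 2 limb H3K27ac bars, 9.98% and 8.45%, lie close together.

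Most purmorphamine-only peaks of the 2 regions lay outside limb acetylation, as did most of those in the whole list. At Chd6 and Emilin3, 0 of 33 overlapped a WT limb H3K27ac peak, and at Rasl11b 3 of 30 did, or 10.0%. The background was 5.26% of all purmorphamine-only peaks, and no difference from it was tested. Of the 12 that were at least 1 kb wide, 2 overlapped a WT peak, beside 9.66% of all such peaks. Adjacent peaks of 1 locus are not independent, so no interval is given for these shares. The overlapping ones of 1 kb or more were the 5200-bp peak far upstream of Rasl11b, which also met limb H3K4me2, and the downstream element whose sequence is printed above. At that element the purmorphamine peak (chr5:74200900-74203349) had a log2 ratio of 4.02 and rank 10692, and no control peak was called downstream of the gene. The peaks with the best ranks, 459 on chromosome 2 and 485 and 2706 on chromosome 5, met no peak of any of the 5 limb lists.

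Seen from the limb, 5 of 13 WT H3K27ac peaks at Rasl11b overlapped a purmorphamine peak but no control peak, beside 3.46% of all WT peaks, and 11 of 18 Shh-/- peaks did so, beside 3.13%. The region was chosen for peaks of this kind, and several of the limb peaks lie in the same wide fibroblast peak. At Chd6 and Emilin3 it was 0 of 5 WT peaks and 1 of 4 Shh-/- peaks. No limb H3K27ac or H3K4me2 peak of either region overlapped a control peak without also overlapping a purmorphamine peak.

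Every exact GLI consensus of the 2 regions lay in a purmorphamine peak, 3 of 3 at Chd6 and Emilin3 and 1 of 1 at Rasl11b, while 3.48% of the 18532 matches in the genome did. Purmorphamine peaks covered 15.3% and 33.9% of the 2 windows and 2.08% of the genome. The regions were chosen for strong purmorphamine peaks, so these shares are a description and not a test. The match in the Zhx3 UTR was in a peak of the control list as well and in both limb H3K4me2 lists. The match in the Chd6 intron was in the peak of rank 459, and the one upstream of Rasl11b in a purmorphamine-only peak (chr5:74181400-74182499) of rank 27384 and log2 ratio 3.23. None of these 3 lay in a limb H3K27ac peak or in an H3K27me3 peak.

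Among the 80 purmorphamine peaks of the 2 regions 4 held the consensus, beside 0.725% of all purmorphamine peaks. All 4 were among the 23 peaks of at least 1 kb, beside 2.33% of such peaks in the whole list. Both regions were chosen for their purmorphamine peaks, so these shares were not tested. The windows had 9.91 and 9.60 matches per Mb, and the genome had 6.80. At Gli1, 0 of 2 matches in the window lay in a purmorphamine peak, and at Ptch1 1 of 6, in a peak of rank 1448 in an intron. A match to 9 letters is a description and does not show binding.

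**Figure D4:**
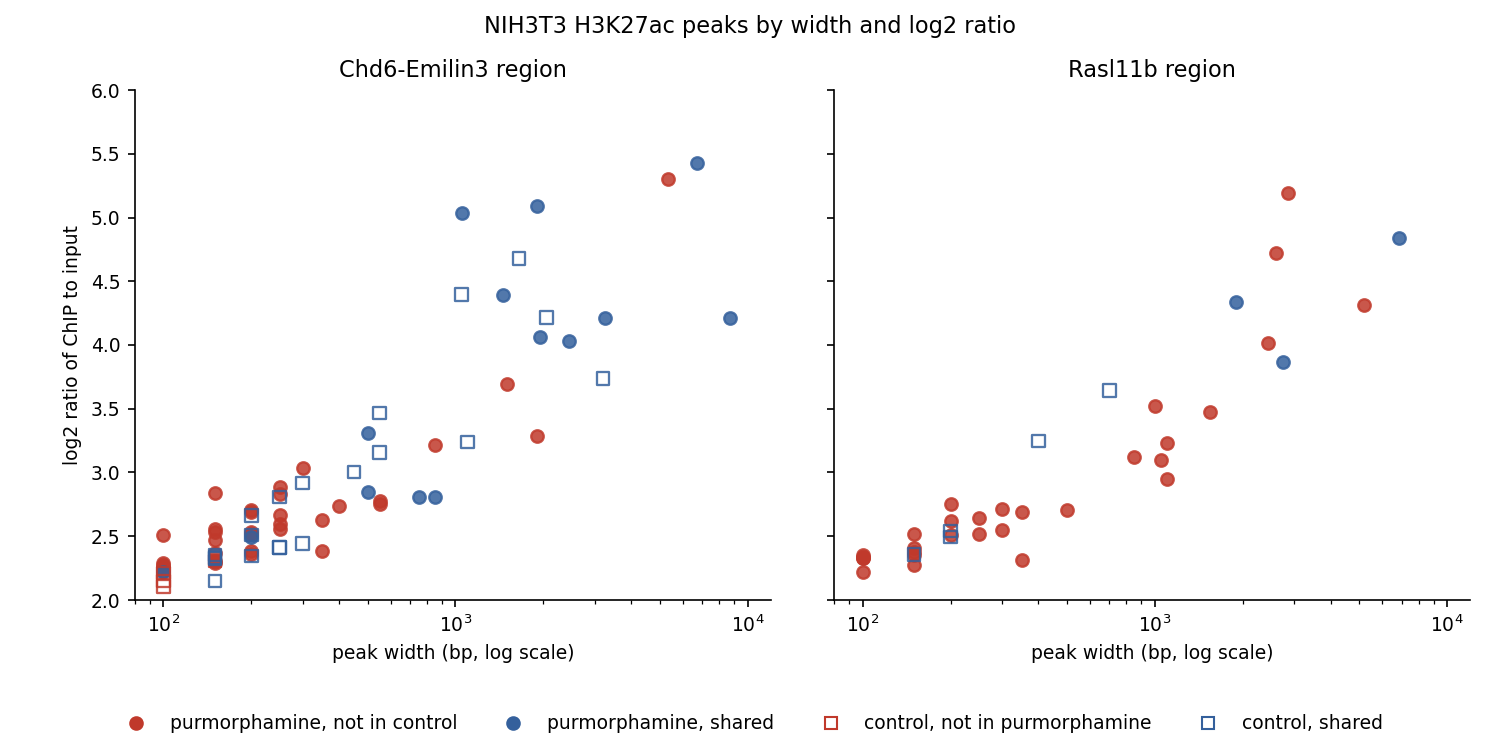
Each point is 1 H3K27ac peak of NIH3T3 cells at the 2 regions, with peak width in bp on a log axis and the log2 ratio of ChIP to input on the vertical axis; filled circles are purmorphamine peaks and open squares control peaks, red without and blue with overlap in the other list. The red circles at the upper right include the peaks of rank 459 on chromosome 2 and of ranks 485, 2706 and 6592 on chromosome 5, and no control peak of the Rasl11b region is wider than 700 bp.

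Beside the members, the better-ranked 10% of the purmorphamine list held a purmorphamine-only peak within 50 kb of 2 of 12 Hedgehog pathway genes (Gli1 and Gli2), against 0.602% of protein-coding genes. At the Gli1 start, purmorphamine gave the first-placed purmorphamine-only peak, with rank 96 and a log2 ratio of 5.60. Start-site H3K27ac was called for 10 of 12 pathway genes with purmorphamine and 9 in control cells, the additional one being Gli1, beside 50.0% of all protein-coding starts in each list. Start-site H3K27ac was called for 10 in WT limb buds and 8 in Shh-/- buds, beside 41.0% and 38.1% of all starts. H3K4me2 marked all 12 starts in both genotypes, beside 60.8% in WT and 60.3% in Shh-/-. H3K27me3 marked the starts of 3, namely Gli1, Ptch1 and the antagonist gene Hhip, beside 11.5%. Of these, Hhip had the state of Emilin3, with H3K4me2 and H3K27me3 and no H3K27ac in any list.

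The families of the members were described in the same way. The counts of the members follow from the contrast that chose them, and 36.5% of all purmorphamine peaks were purmorphamine-only. In each of the RAS-like, CHD, and EMILIN and multimerin families, a better-ranked purmorphamine-only peak lay within 50 kb of 1 gene, the member. The families have 5, 9 and 5 genes. For Chd6 and Emilin3 it was the same peak, of rank 459, so these are not separate cases. Rasl11b had 30 purmorphamine-only peaks of 33 in its window, and its relative Rasl12 had 20 of 22, including a peak at its start with purmorphamine but not in control cells, though none in the better-ranked 10%. Rasl11a had 0 of 5. Among chromodomain helicase genes, Chd6 had 23 of 34, Chd1 6 of 11, Chd2 12 of 49 and Chd7, which had the fewest, 0 of 3. Emilin1 and Emilin2 had 2 of 19 and 5 of 14, against 33 of 42 for Emilin3. The 33 include all 23 of Chd6, because the 2 windows overlap, and 4 of the 33 lie in the Emilin3 body. The starts of Emilin1 and Emilin2 were acetylated in all 4 H3K27ac lists, where that of Emilin3 was not.

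On chromosome 5 the purmorphamine peak at the upstream edge had rank 62558 and the next outside lay 487 bp away with rank 87213, and the first peak past the downstream edge lay 1019 bp away with rank 54726. On chromosome 2 the nearest purmorphamine peak past the window on the Chd6 side lay 5125 bp away with rank 64449, and the one on the Zhx3 side 123.6 kb away with rank 1417, shared with control cells. The first peak inside that edge, at the Zhx3 start, ranked 1904 and was shared as well, so this edge lies between strong peaks and the other 3 have weaker peaks outside them. One further purmorphamine-only peak of high rank lies in an intron of Scfd2, 92.0 kb past the Rasl11b window (chr5:74341500-74345899, log2 ratio 4.83), with rank 1878 and place 10 among purmorphamine-only peaks. In the fibroblast lists the start of Scfd2, a gene of the SEC1 domain family, had log2 ratios of 3.02 with purmorphamine and 3.57 in control cells.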

How the data were processed

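ChIP-seq peak lists of 7 conditions were used. By the labels and the study's methods the authors aligned reads with Bowtie2 2.2.5, called peaks with CisGenome 2.1.0 on mm10 from both replicates against input, and named limma for their own tests. For each peak the authors deposited a false discovery rate (a q-value), a score, the maximum log2 ratio of ChIP over input, and −log10 of the smallest Poisson p-value. Reads per library cannot be read from these lists, so depth is unknown here. The lists hold no values of single replicates, so no test was made.

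Peaks of the autosomes and of X and Y were placed on GENCODE M21 genes and the GRCm38 sequence with Python 3.11.15 and pandas 2.3.3. Overlap was checked against bedtools 2.31.1 and on simulated data. Named were the 3 genes, other protein-coding genes in their windows, Gli1, Ptch1 and fixed gene lists, and by peak the unshared fibroblast peaks of the better-ranked 10%, the best of each list and region, those nearest each start and those at the window edges. The genes, windows and lists were chosen with earlier results of these data known. One pathway gene and 1 consensus match are not reported here, and the pathway counts are over the other 12 genes. Background percentages are over the whole list.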

Additional observations from a re-analysis of the deposited data

How the results depend on the processing

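No paired analysis was possible because each list was called from both replicates together, and for the same reason no replicate could be left out. In 67 recomputed counts over 9 results, 43 stayed within 1.5 times the value given and 24 did not. Keeping the better-ranked 50% of every list left 13 of the 33 purmorphamine-only peaks at Chd6 and Emilin3 and 12 of the 30 at Rasl11b, with 1 control-only, 5 WT-only, 4 Shh-/- only and 2 unshared H3K4me2 peaks over both regions. Merging peaks of a list within 1 kb gave 8 and 5 purmorphamine-only peaks, 4 WT-only, 3 Shh-/- only and 4 unshared H3K4me2 peaks, and 1 purmorphamine-only peak overlapping a WT limb peak. Counting a gap of up to 500 bp as shared gave 5 WT-only, 6 Shh-/- only and 3 unshared H3K4me2 peaks and 5 purmorphamine-only peaks meeting a WT limb peak, while asking for overlap of 50% of the peak gave 1. Flanks of 20 kb gave 18 purmorphamine-only peaks at Rasl11b, 2 control-only, 4 WT-only and 5 Shh-/- only peaks, and flanks of 100 kb gave 48 at Rasl11b and 8 control-only peaks. Allowing 1 mismatch raised the purmorphamine peaks with the GLI consensus from 4 to 17. No whole-list share stands beside the 17, so that count says nothing about these loci.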
